A study of Homo sapiens with 5 samples.

Results

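The 8 genes described here are 4 gasdermin genes (DFNA5, GSDMB, GSDMC and GSDMD) and 4 caspase genes (CASP1, CASP4, CASP8 and CASP9), among the 37181 genes or assembled loci in the deposited expression table. DFNA5 is the older symbol of GSDME, which encodes gasdermin E. The genes were taken by symbol, and where a symbol had several rows the row with the highest mean over the 5 libraries was used, which decided the row for GSDMB and GSDMD. Expression was measured by RNA sequencing in HCC827/GR cells (replicates 1, 2 and 3, gefitinib resistant) and in the parental HCC827 cells, labelled HCC827/GS (replicates 2 and 3, gefitinib sensitive). HCC827 is a human lung adenocarcinoma cell line, and both groups carry the deletion in exon 19 of EGFR. HCC827/GR cells were selected from the parental line under rising doses of gefitinib, an inhibitor of the EGFR kinase, for more than 6 months, and they are a single derived line. Values are FPKM as the authors deposited them, that is, sequenced fragments scaled by transcript length and by the total mapped in a library. The sources used here do not say that replicates were separate cultures, so p-values measure only the spread between these libraries.

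Gasdermins are pore-forming proteins. A protease cuts the linker between an amino-terminal and a carboxy-terminal domain, and the freed amino-terminal domain inserts into the plasma membrane and causes the lytic death called pyroptosis. Inflammatory caspases (caspase-1 and caspase-4) cut gasdermin D, and cleavage of gasdermin E during apoptosis can turn it into lytic death. Caspase-8 starts apoptosis below death receptors, and caspase-9 starts it at the apoptosome after cytochrome c leaves the mitochondria. Only mRNA was measured here, so neither cleavage nor cell death is part of the data.

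Among the 8 genes, DFNA5 alone passed the test. Its mRNA was higher in HCC827/GR cells. It went from a small part of the gasdermin transcripts to nearly the level of the GSDMD row used here, which leaves out a second GSDMD row. The other gasdermins did not pass the test or were too low to be tested, and no caspase of the 4 passed it. Because DFNA5 carried the difference, a stretch before its listed RefSeq transcription start is shown first. Beside it is one of CASP8, whose log2 difference was near 0. Both come from RefSeq (GRCh38.p14), are written 5′ to 3′ on the strand of the gene, and have each CpG dinucleotide in capitals. Each is the longest run outside annotated exons within the 250 bases before a listed start. The first lies at chr7:24757544-24757706 on the minus strand. It ends 79 bases before that start and lies inside the annotated range of DFNA5 (24698351 to 24758113). The second lies at chr2:201233213-201233442 on the plus strand. It ends 20 bases before its start and lies before the annotated range of CASP8.
GSDME (DFNA5): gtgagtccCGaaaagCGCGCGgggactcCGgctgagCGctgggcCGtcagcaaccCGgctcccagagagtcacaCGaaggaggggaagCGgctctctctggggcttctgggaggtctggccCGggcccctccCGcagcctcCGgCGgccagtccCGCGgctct
CASP8: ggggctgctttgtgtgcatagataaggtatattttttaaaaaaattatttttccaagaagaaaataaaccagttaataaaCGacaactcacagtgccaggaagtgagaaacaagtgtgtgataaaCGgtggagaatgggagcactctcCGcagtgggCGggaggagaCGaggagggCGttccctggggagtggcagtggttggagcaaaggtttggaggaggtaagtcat

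The stretch printed for DFNA5 held 16 CpG dinucleotides in 163 bases, and that for CASP8 held 6 in 230 bases. These are unlike regions, the first inside the annotated gene and the second before it, so the counts are not a like comparison. Over the full 250 bases before the start, DFNA5 had 28 CpG dinucleotides, a number reached by 15.9% of 35116 RefSeq promoters. CASP4 had 2 over the same length and CASP8 had 6, 5 and 5 at its 3 listed starts. CASP9, which did not pass the test, had 29 and 25 at its 2 starts, so a CpG-rich start was not particular to DFNA5. Apart from the first CASP8 start, all these 250-base windows lie inside the annotated range of their gene. That of CASP4 lies wholly within annotated exons, so the windows hold transcribed bases to unlike degrees. The motif GGGCGG, searched on both strands, occurred 3 times in the 250 bases before DFNA5, each time outside the stretch printed above (0 there), and in 42.6% of all promoters. The interferon-stimulated response element core (in 3.02% of promoters), TGANTCA (in 6.57%) and TATAAA (in 10.7%) were not found in those 250 bases. DNA methylation and factor binding were not measured, and the letters say nothing of either.

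DFNA5 lies on the minus strand of chromosome 7 (GRCh38, 24698351 to 24758113), has up to 10 exons and overlaps no other annotated gene. Its row joins 14 annotated transcripts of this gene and no transcript assembled anew. Its level was 4.26, 4.85 and 5.05 FPKM in HCC827/GR replicates 1, 2 and 3, and 1.03 and 1.01 FPKM in HCC827 replicates 2 and 3. Every resistant library was above every parental library, and the spread within each group was small beside the gap. The group means were 4.72 ± 0.410 FPKM (SD, n = 3) and 1.02 ± 0.0158 FPKM (SD, n = 2), a ratio of 4.63.

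On the log2(FPKM + 1) scale, which understates changes of low values, DFNA5 was higher by 1.50 (standard error 0.10, 95% interval 1.23 to 1.77, adjusted p = 0.0048). This p came from limma and was adjusted by the Benjamini-Hochberg method over 16189 entries. It was the only one of the 6 tested genes to reach an adjusted p under 0.05, against 11.0% of all tested entries in either direction, 5.26% in the higher and 5.71% in the lower direction. The study's thresholds (a ratio of at least 2 or at most 0.5 with an unadjusted p under 0.05) were applied to the limma result. The ratio was thus that of FPKM + 1, which understates FPKM ratios at low values. By this rule 1 of the 6 was higher (DFNA5) and 0 were lower, beside 2.96% and 3.97% of tested entries. Since the 8 genes were proposed with results of this comparison known, these counts are a description. Of all tested entries, 96.9% had a smaller absolute difference, and DFNA5 ranked 219 from the highest difference. When single libraries were omitted, the log2 difference of DFNA5 ran from 1.46 to 1.56 and the adjusted p from 0.0270 to 0.0400. With a library-size covariate the adjusted p was 0.0476. The authors list DFNA5 among their leading genes in this comparison, so these values are no independent evidence of its direction.

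**Figure D1:**
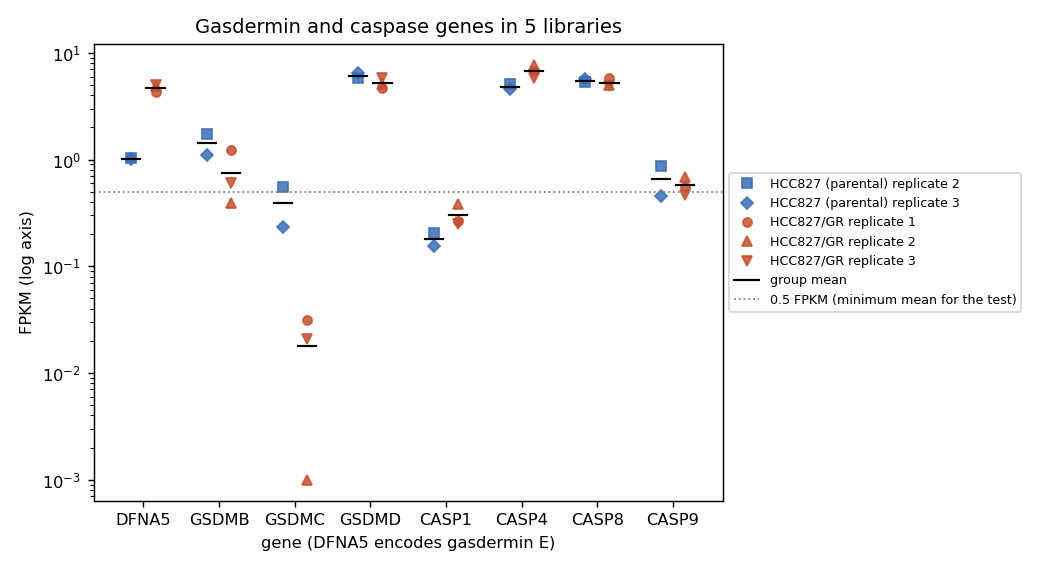
FPKM (log axis) of the 8 genes in each library, with parental HCC827 libraries in blue, HCC827/GR libraries in red and black bars for the group means. DFNA5 stands at 4.26 to 5.05 FPKM in HCC827/GR and 1.01 to 1.03 FPKM in HCC827, and GSDMC and CASP1 have means below the dotted line at 0.5 FPKM, the minimum for the test.

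GSDMD, the gasdermin that inflammatory caspases cut, was the most abundant of the 4 in each library. It lies on the plus strand of chromosome 8 (143553207 to 143563062). Its level was 4.72, 5.15 and 5.81 FPKM across the resistant libraries and 5.82 and 6.41 FPKM across the parental libraries. The resistant libraries were all lower, but the highest of them nearly met the lowest parental library. The log2 difference was -0.20 (standard error 0.12, 95% interval -0.49 to 0.10, adjusted p = 0.352). The interval leaves room for a fall of up to 0.49 on this scale, but not for a change of the size seen for DFNA5.

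GSDMB encodes a gasdermin that granzyme A of cytotoxic lymphocytes can cut. It lies on the minus strand of chromosome 17 (39904595 to 39919854). It had 1.23, 0.394 and 0.599 FPKM across the resistant libraries and 1.75 and 1.10 FPKM across the parental libraries. HCC827/GR replicate 1 lay between the parental libraries, so the groups overlapped. The log2 difference was -0.49 (standard error 0.26, 95% interval -1.17 to 0.18, adjusted p = 0.305).

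GSDMC, a gasdermin that caspase-8 can cut, lies on the minus strand of chromosome 8 (129748196 to 129786888) and had the lowest mean of the 8 over the 5 libraries, although CASP1 was lower in both parental libraries. It had 0.0312, 0.000992 and 0.0210 FPKM across the resistant libraries and 0.548 and 0.235 FPKM across the parental libraries. All resistant libraries were below both parental libraries, with means of 0.0177 ± 0.0154 FPKM (SD, n = 3) and 0.392 ± 0.221 FPKM (SD, n = 2). Its mean over the 5 libraries was 0.167 FPKM, below the minimum of 0.5 FPKM, so it was not in the main test. With no minimum its adjusted p was 0.124 from limma. At such values few reads stand behind each number, and how many is unknown.

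Summed over the rows used for the 4 genes, gasdermin transcripts took 10.2, 10.4 and 11.5 FPKM across the resistant libraries and 9.15 and 8.75 FPKM across the parental libraries. FPKM is scaled by transcript length, so levels of different genes are set side by side here, though only as a rough guide. DFNA5 held 41.6%, 46.6% and 43.98% of this sum in HCC827/GR replicates 1, 2 and 3 and 11.3% and 11.5% in HCC827 replicates 2 and 3. GSDMD held 46.1%, 49.6% and 50.6% in the resistant libraries and 63.6% and 73.3% in the parental libraries. The share of GSDMD was thus lower while its own FPKM did not pass the test. The ratio of GSDMD to DFNA5 was 1.11, 1.06 and 1.15 in HCC827/GR and 5.65 and 6.36 in HCC827. These shares restate the values above and were not tested. The sums, shares and ratios leave out the further rows of GSDMB and GSDMD given below. The second GSDMD row had 1.54, 1.58 and 1.64 FPKM across the resistant libraries. With it added, GSDMD would stand further above DFNA5 in every library.

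**Figure D2:**
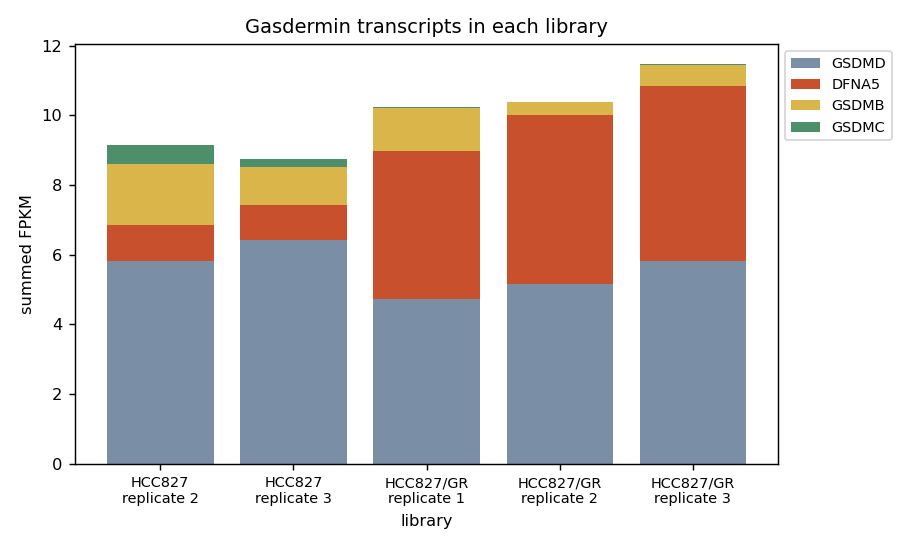
Summed FPKM of the rows used for the 4 gasdermin genes in each library, stacked by gene, with the axis starting at 0. The DFNA5 segment is 41.6% to 46.6% of the bar across the resistant libraries and 11.3% to 11.5% across the parental libraries, while the GSDMD segment stays between 4.72 and 6.41 FPKM in all 5.

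GSDMB and GSDMD each had a further row in the table, made of 1 transcript that StringTie assembled anew. The second GSDMD row had 1.54, 1.58 and 1.64 FPKM across the resistant libraries and 1.95 and 2.10 FPKM across the parental libraries, without overlap, and a log2 difference of -0.22 (adjusted p = 0.214 from limma). The second GSDMB row was above 0 in HCC827 replicate 2 (2.70 FPKM) and HCC827/GR replicate 3 (0.472 FPKM) and listed at 0 elsewhere. With the rows of a symbol summed, the log2 difference of GSDMD was -0.23 and that of GSDMB -0.86, and neither passed the test.

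Of the caspases, CASP4 had the only values that were above the parental range in each resistant library and were high enough for the test. CASP4 encodes the caspase that senses bacterial lipopolysaccharide in the cytosol, and lies on the minus strand of chromosome 11 (104942866 to 104969436). It had 6.73, 7.74 and 5.77 FPKM across the resistant libraries and 5.09 and 4.57 FPKM across the parental libraries. Every resistant library was above every parental library. The log2 difference was 0.40 (standard error 0.14, 95% interval 0.04 to 0.77), with an unadjusted p of 0.0363 and an adjusted p of 0.153 from limma, so it did not pass the test over all entries. Over the alternatives, its log2 difference stayed between 0.31 and 0.50.

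CASP1 encodes the caspase that inflammasomes activate and that processes interleukin-1 beta and interleukin-18. It lies on the minus strand of chromosome 11 (105025443 to 105035250), and CASP4 is the nearest tested protein-coding gene before it. Its level was 0.265, 0.387 and 0.249 FPKM across the resistant libraries and 0.204 and 0.155 FPKM across the parental libraries. The groups did not overlap, but the mean of 0.252 FPKM kept it out of the main test, and with no minimum its adjusted p was 0.487 from limma. CARD16 and CARD17, which resemble the first part of CASP1 closely, could share reads with it. Between the genes, CASP4 stood 20.0 to 29.5 times above CASP1 in each library.

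CASP8, the initiator caspase of death receptors, lies on the plus strand of chromosome 2 (201233443 to 201287711). It had 5.77, 4.96 and 4.90 FPKM across the resistant libraries and 5.32 and 5.68 FPKM across the parental libraries, and the groups overlapped. The log2 difference was -0.07 (standard error 0.11, 95% interval -0.34 to 0.21, adjusted p = 0.738 from limma). Its row joins 30 transcripts, of which 10 were assembled anew.

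CASP9, the initiator caspase of the apoptosome, lies on the minus strand of chromosome 1 (15490832 to 15526534), where it overlaps CELA2B on the other strand. It had 0.557, 0.692 and 0.469 FPKM across the resistant libraries and 0.863 and 0.458 FPKM across the parental libraries. The parental libraries lay on both sides of the resistant ones. The log2 difference was -0.07 (standard error 0.17, 95% interval -0.52 to 0.38, adjusted p = 0.841 from limma). Its mean of 0.608 FPKM was the lowest among the 6 tested genes, and 6.80% of tested entries had a lower mean.

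In all, the groups did not overlap in 2 of the 6 tested genes in the higher direction (DFNA5 and CASP4), against 22.8% of all tested entries, and in 1 in the lower direction (GSDMD), against 23.4%. Together these are 3 of 6, against 46.3% of all tested entries in either direction. The median log2 difference was -0.07 over the 6 tested genes and 0.00143 over all tested entries. In order of mean level, the parental cells had GSDMD (6.12 FPKM), CASP8 (5.50), CASP4 (4.83), GSDMB (1.42), DFNA5 (1.02), CASP9 (0.660), GSDMC (0.392) and CASP1 (0.179). The libraries of neighbouring genes in this order overlapped only for CASP9 and GSDMC. In HCC827/GR cells the order was CASP4 (6.75 FPKM), GSDMD (5.23), CASP8 (5.21), DFNA5 (4.72), GSDMB (0.742), CASP9 (0.572), CASP1 (0.301) and GSDMC (0.0177). There, the ranges of neighbours overlapped from CASP4 through DFNA5 and between GSDMB and CASP9, and not elsewhere.

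**Figure D3:**
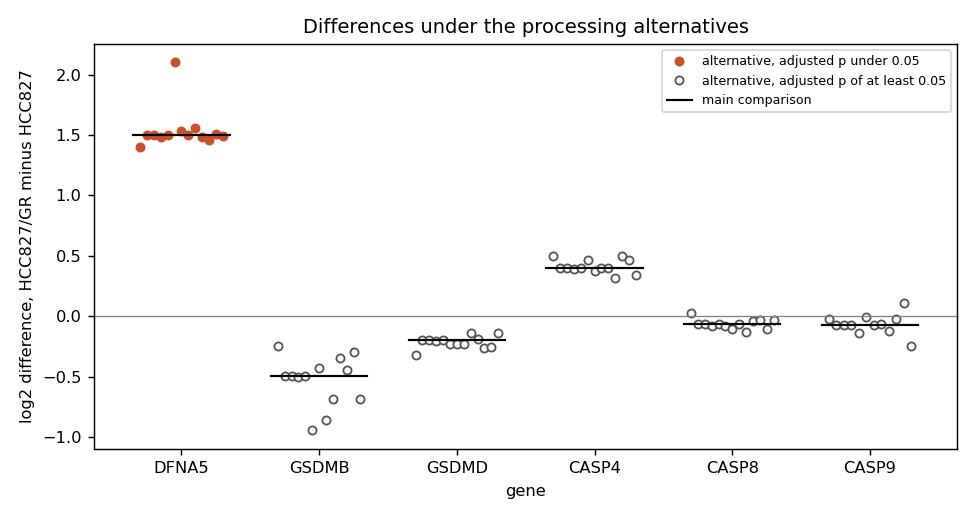
Log2 difference between HCC827/GR and parental HCC827 for the 6 tested genes, with black bars for the main comparison and points for the alternative processing choices with a test, other than the replicate term described with the processing. DFNA5 runs from 1.40 to 2.10 with all 13 points filled (adjusted p under 0.05), while GSDMB, GSDMD, CASP4, CASP8 and CASP9 have open points (adjusted p of at least 0.05).

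The chromosomal neighbours of DFNA5 were not higher by the test. Of the 3 nearest tested protein-coding genes on either side, none passed the test in the higher direction and 1 passed it in the lower direction. This was OSBPL3, the nearest on one side, with a log2 difference of -0.63 (adjusted p = 0.0206 from limma). The 6 neighbours ran from -0.63 to 0.94 with a median of 0.12. The highest, CYCS, did not pass the test and rested on HCC827/GR replicate 3. It had 30.7 FPKM there, against 3.24 and 5.45 FPKM in HCC827/GR replicates 1 and 2. Without HCC827/GR replicate 3 its log2 difference was 0.07. Around GSDMC, 3 of 6 neighbours were lower by the test, namely FAM84B (-3.74), FAM49B (-0.97) and EFR3A (-0.85), and the 6 ran from -3.74 to 0.48. Beside GSDMD, 1 of 6 was lower, which was MROH6 (-1.35), and beside GSDMB, 1 of 6 was lower, which was GRB7 (-1.93). CASP1 and CASP4 share most of their neighbours, of which 1 was higher, PDGFD (2.08). CASP8 had STRADB (0.96) and CASP9 had KAZN (0.83) as the 1 neighbour of 6 that was higher. Over all tested entries, 5.26% were higher and 5.71% lower by the test. The nearest tested genes can lie far away. On chromosome 8, GSDMC starts at 129748196, FAM84B at 126552442 and EFR3A at 131904088. These neighbours are named after their values were seen.

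**Figure D4:**
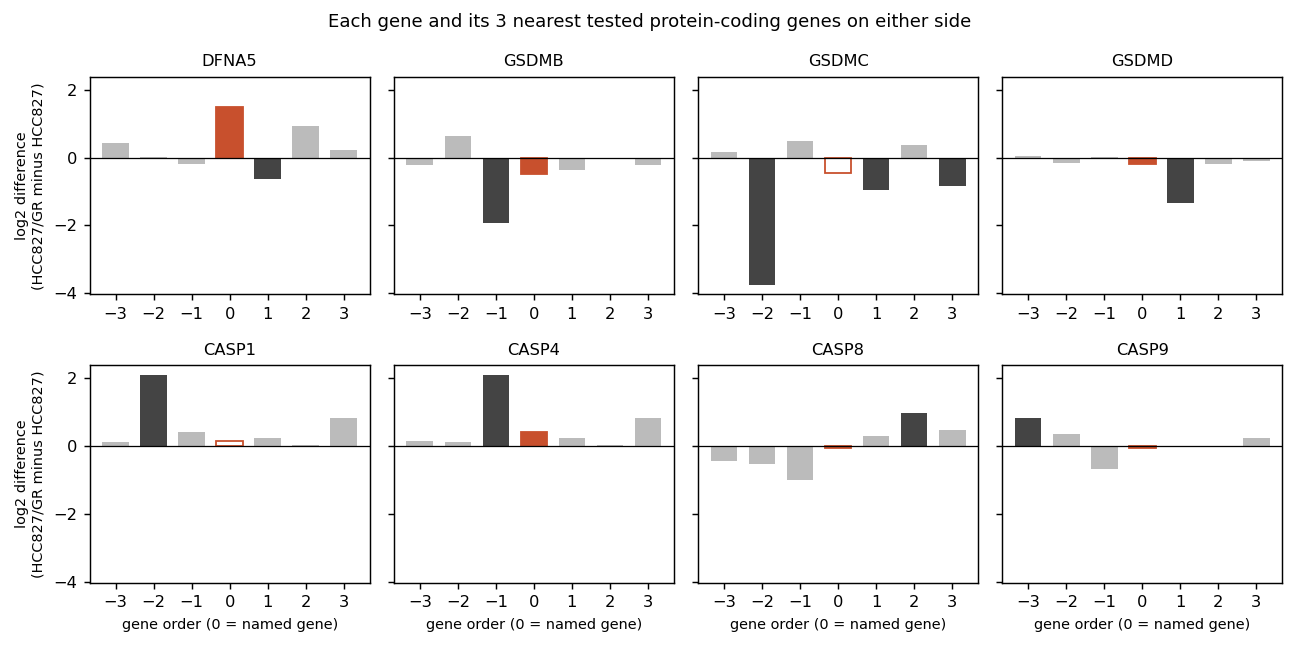
Log2 difference, HCC827/GR minus parental HCC827, of each gene (red, at 0) and its 3 nearest tested protein-coding genes on either side in order along the chromosome, dark where the adjusted p is under 0.05; open red bars mark GSDMC and CASP1, which were too low for the test. Around DFNA5 (1.50) no neighbour is dark above 0, and around GSDMC 3 neighbours are dark below 0, with FAM84B at -3.74.

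The partners of these genes were read from 11 lists with 69 genes in all, of which 61 had a row here, 44 were tested, 1 was higher and 4 were lower (adjusted p under 0.05). That is 11.4% of those tested, against 11.0% of all tested entries. Their median log2 difference was -0.10. The 8 without a row (CASP6, CASP12, CASP14, CARD18, GZMA, CTSG, DIABLO and TNFRSF10A) were not analysed here.

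Among the other caspases reported here, neither of the 2 tested passed. CASP2, an initiator caspase tied to DNA damage, was the more abundant, with 6.94, 9.99 and 7.41 FPKM across the resistant libraries and 6.64 and 7.24 FPKM across the parental libraries. The groups overlapped, and its log2 difference was 0.19 (standard error 0.17, limma adjusted p = 0.551). CASP10, which lies just before CASP8 and works beside it at death receptors, had 0.904, 1.59 and 0.947 FPKM against 4.71 and 2.23 FPKM (log2 difference -1.01, adjusted p = 0.108). CASP10 is named after its values were seen. Of the other gasdermins, DFNB59 had a log2 difference of 0.11 (adjusted p = 0.669), and GSDMA reached at most 0.0523 FPKM.

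Inflammasomes are the assemblies on which caspase-1 is activated. Of 10 sensors and adaptors, 3 were tested and none passed. NEK7, the most abundant, had a log2 difference of -0.56 (standard error 0.36, adjusted p = 0.384). Too low for the test were 7 genes, of which 3 are named here after their values were seen. PYCARD, an adaptor between sensors and caspase-1, was at most 0.0333 FPKM in any library and listed at 0 in 2. NLRP1 had 0.481, 0.591 and 0.385 FPKM in HCC827/GR and 0.175 and 0.140 FPKM in HCC827. AIM2, a sensor of cytosolic DNA, had 0.0191, 0.0367 and 0.123 FPKM in HCC827/GR and 0.511 and 0.741 FPKM in HCC827. CARD16, of the genes beside CASP1 that encode little more than its CARD, was at most 0.221 FPKM, and of the granule proteases GZMB, which cuts gasdermin E, was above 0 only in HCC827 replicate 2 (0.0790 FPKM).

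Of the 4 tested genes for cytokines released in pyroptosis and for membrane rupture, IL1A was higher, IL18 was lower and IL1B and NINJ1 did not pass the test. IL1A, an alarmin, had 3.31, 2.36 and 4.27 FPKM across the resistant libraries and 0.913 and 0.873 FPKM across the parental libraries, all higher in the resistant cells. Its log2 difference was 1.17 (standard error 0.21, limma adjusted p = 0.0361). Leaving out HCC827/GR replicate 1 gave an adjusted p of 0.114, leaving out HCC827/GR replicate 3 gave 0.0632, and leaving out parental replicates 2 and 3 in turn gave 0.158 and 0.152. With a library-size covariate the adjusted p was 0.157 for IL1A and 0.0953 for IL18, and with no minimum it was 0.0755 for both. IL18, a substrate of caspase-1, had 2.43, 4.09 and 3.47 FPKM in HCC827/GR and 7.46 and 7.92 FPKM in HCC827. It fell by 1.02 (standard error 0.19, adjusted p = 0.0385). Without any single library its adjusted p was above 0.05, at 0.0595, 0.0582 and 0.0980 without HCC827/GR replicates 1, 2 and 3 and at 0.158 and 0.162 without HCC827 replicates 2 and 3.

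Of the 9 tested regulators of CASP1, CASP4 and GSDMD, 1 was lower. This was SERPINB1, an inhibitor of neutrophil proteases that also restrains inflammatory caspases, with 8.36, 8.22 and 7.32 FPKM in HCC827/GR and 20.7 and 20.6 FPKM in HCC827. It fell by 1.28 (standard error 0.10, adjusted p = 0.00552 from limma), with no overlap, and with a library-size covariate its adjusted p was 0.0557. IRF1 and IRF2, the transcription factors of this list, did not pass. Of the genes for guanylate-binding proteins, which bring caspase-4 to bacteria, GBP1, GBP2 and GBP3 did not pass. GBP4 and GBP5 were too low for the test.

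Of 6 tested caspase inhibitors, XIAP was lower. XIAP binds and blocks active caspases, caspase-9 among them. It had 5.82, 6.60 and 5.54 FPKM across the resistant libraries and 14.2 and 15.3 FPKM across the parental libraries, and the gap was larger than the spread in either group. It fell by 1.18 (standard error 0.11, adjusted p = 0.00862 from limma), and without HCC827 replicate 3 its adjusted p was 0.0517 and with a library-size covariate 0.0718. CFLAR, which competes with caspase-8 for its adaptor and lies near CASP8 on chromosome 2, had 3.45, 3.78 and 3.52 FPKM against 4.62 and 6.85 FPKM. It did not pass (log2 difference -0.54, adjusted p = 0.123), and it is named after its values were seen.

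In the remaining lists, none of 3 tested apoptosome genes passed. CYCS, which encodes cytochrome c, had 3.24, 5.45 and 30.7 FPKM in HCC827/GR and 4.12 and 3.85 FPKM in HCC827, so HCC827/GR replicate 3 stood apart. CYCS has processed pseudogenes with which reads could be shared. None of 7 tested genes of death receptor signalling and necroptosis passed, and TNFRSF1A, the most abundant, had a log2 difference of -0.46 (adjusted p = 0.393). Of 9 tested caspase substrates, LMNB1, which encodes lamin B1, was lower. It had 20.2, 18.0 and 23.0 FPKM in HCC827/GR and 36.0 and 39.8 FPKM in HCC827, and fell by 0.87 (standard error 0.13, adjusted p = 0.0255). Its adjusted p was 0.0912 and 0.0652 without HCC827/GR replicates 1 and 2, and 0.0985 and 0.112 without HCC827 replicates 2 and 3. With a library-size covariate it was 0.101.

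**Figure D5:**
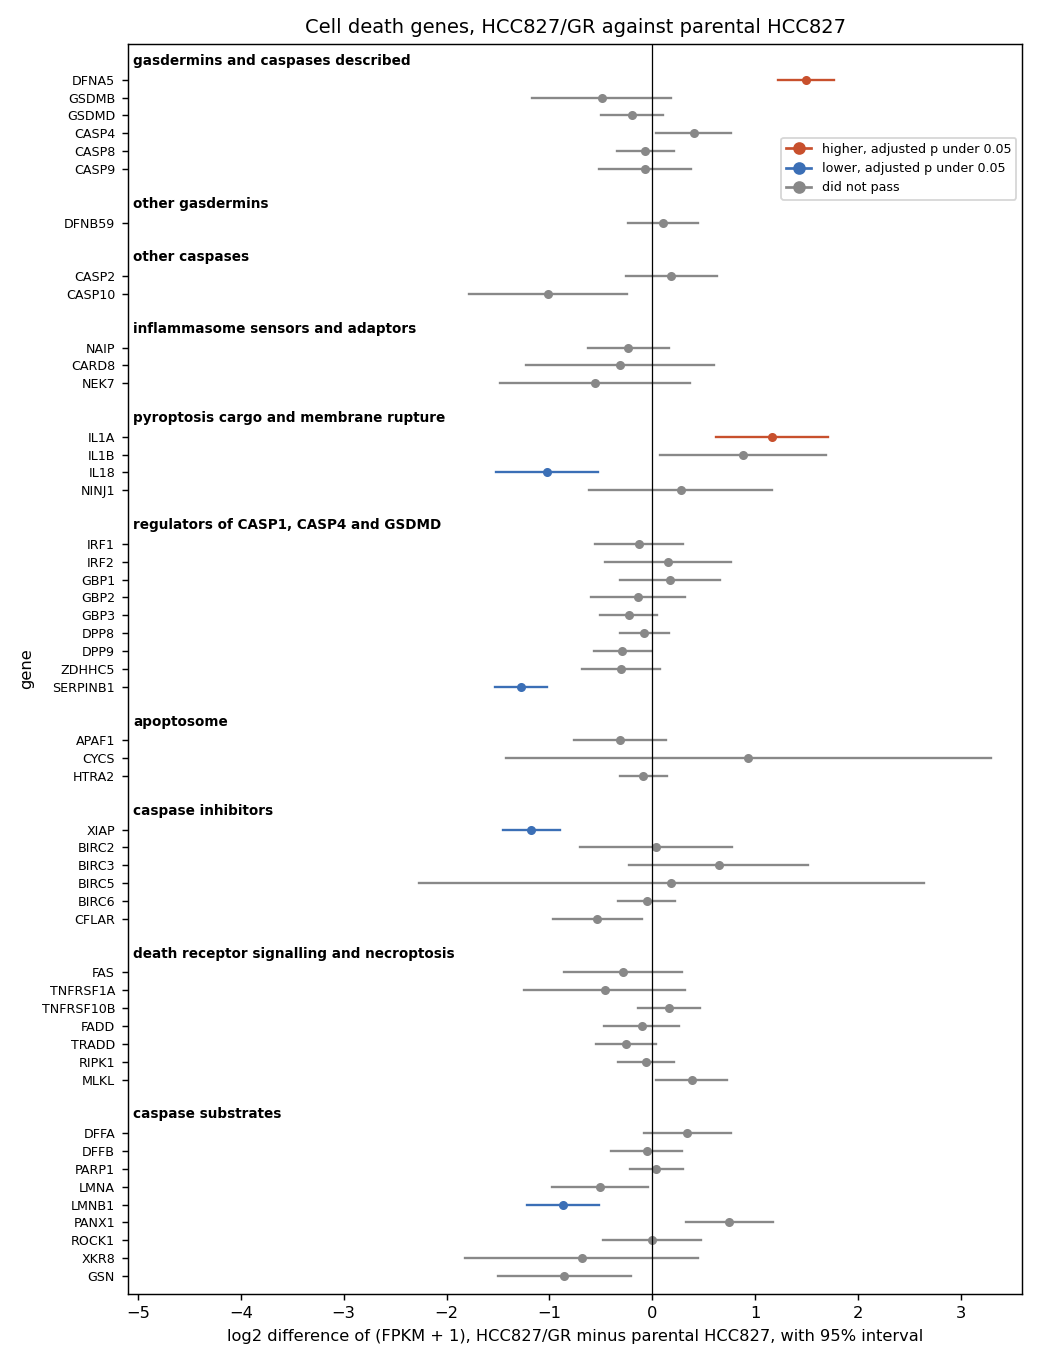
Log2 difference of (FPKM + 1) between HCC827/GR and parental HCC827 (points) with its 95% interval (lines) for the tested genes, grouped by list. Among the described genes DFNA5 alone is coloured, at 1.50, and among the listed partners IL1A is higher and IL18, SERPINB1, XIAP and LMNB1 are lower.

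Markers of the labelled cells and of other cells were read in the same way. Epithelial markers (5 of 6 with a row) summed to 1063 and 1182 FPKM in HCC827 and 443 to 573 FPKM in HCC827/GR, and 4 of the 5 were lower by the test. Of the lung adenocarcinoma markers NKX2-1 was at 4.60 and 4.003 FPKM in HCC827 and 0.415 to 0.963 FPKM in HCC827/GR, whereas SFTPB, SFTPC and SLC34A2 were at most 0.139 FPKM. Leukocyte markers (6 of 7 with a row) summed to 31.7 and 39.6 FPKM in HCC827 and 33.3 to 38.6 FPKM in HCC827/GR, nearly all of it from the row named CD68, which joins 66 transcripts and so may hold reads of other genes, and PTPRC, the defining leukocyte marker, was at most 0.0228 FPKM. Fibroblast and endothelial markers (8 of 8) summed to 4.04 and 5.33 FPKM in HCC827 and 0.757 to 1.19 FPKM in HCC827/GR. The lower sum rested on PECAM1, whose row used here is 1 of 10 and holds 1 transcript assembled anew, with 4.34 and 3.32 FPKM in HCC827 and listed at 0 in HCC827/GR. PDGFRB went the other way, with 0.278, 0.184 and 0.184 FPKM in HCC827/GR and 0.00777 and 0.0147 FPKM in HCC827, and COL1A1 overlapped between the groups. The part of the epithelial and endothelial marker differences in the results was not tested. In bulk RNA, fewer cells that express a gene and less mRNA per cell cannot be told apart.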

How the data were processed

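RNA of 3 HCC827/GR and 2 parental HCC827 libraries was sequenced. The authors deposited FPKM values per gene or assembled locus, after trimming with Cutadapt, mapping with Bowtie2 and TopHat2 and quantification with StringTie, with versions not given in the sources used here. The submitters' processing notes list hg18, whereas positions given here come from GENCODE release 29 (GRCh38), matched by Ensembl transcript identifiers. The labels describe a single-end small RNA library, whereas the paper describes a paired-end mRNA library from RNA depleted of ribosomal RNA. The values are read here as mRNA levels, which rests on the paper. FPKM carries no read counts, so depth is unknown. The table holds 1 further FPKM column that matches no sample used here and was left out.

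With limma 3.58.1 in R 4.3.3 (lmFit, then eBayes with its trend option), log2(FPKM + 1) was compared for the 16189 entries averaging 0.5 FPKM or more. P-values were two-sided and adjusted by Benjamini-Hochberg, and calls had an adjusted p under 0.05. Named were the 8 genes, in each list those past the test or else the most abundant, and the 3 genes with the profile nearest to DFNA5. Some partner genes are not reported here and were left out of the lists. Members and lists were chosen with earlier results of these data known. The fit was tested on simulated data. Alternatives changed the pseudocount (0.1), the minimum (none, or 1 FPKM), the scaling (median ratio or quantile), the trend, the covariates (library size or a replicate term), the rows used per symbol, the scale (ratio of means) and the thresholds, or left out each library. Non-overlap of the groups was added after the data were seen.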

Additional observations from a re-analysis of the deposited data

How the results depend on the processing

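Apart from the fit with the replicate number as a block, the call of DFNA5 held in 13 of 13 alternatives with a test. As a ratio of the mean FPKM its log2 difference was 2.21. No other tested gene of the 8 was called in any limma alternative, and GSDMC and CASP1 could be tested only with no minimum. By non-overlap, 2 of the tested genes were higher and 1 was lower. None of the 8 was called lower, and 0 had an unadjusted p under 0.05 in that direction in the main limma comparison. With a library-size covariate the sign changed for CASP8 (0.024, from -0.07) and for CYCS (-0.43, from 0.94), neither called in either fit. It also changed for CASP9 without HCC827 replicate 2, with values from -0.25 to 0.11 as each library was left out. The cause was not tested. With a library-size covariate, limma called 68 entries higher and 77 lower over the whole table, and 0 and 0 of the partner genes, of which 2 and 6 had an unadjusted p under 0.05. With no minimum the higher entries numbered 504, and 0 partner genes were called higher, of which 6 had an unadjusted p under 0.05. The study's thresholds, applied to FPKM + 1 with the limma p, gave 480 higher entries, and quantile normalization gave 2 higher partner genes. With each library left out, 202 to 485 entries were higher and 287 to 477 lower, against 851 and 924 with all libraries, and 0 to 1 partner genes were higher and 1 to 4 lower. Where this left 1 parental library, it was assumed to vary like the resistant ones.

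HCC827/GR and HCC827 share replicate numbers 2 and 3. Same-numbered deviations from the group means correlated at 0.0328 for replicate 2 and 0.0147 for replicate 3. Deviations of the 2 parental libraries mirror each other, so each value recurs with the opposite sign for the other parental library. HCC827/GR replicate 1, which has no parental match, correlated at 0.0174 with HCC827 replicate 3. The correlations thus cannot show whether the numbers pair libraries, and nothing in the labels ties the numbers to a shared culture. With the replicate number as a block, limma called 0 entries higher and 0 lower, with 1676 and 1869 at an unadjusted p under 0.05. Replicate 1 exists only in HCC827/GR, so the block takes that library out of the comparison and leaves little to estimate the spread. DFNA5 had the same log2 difference, 1.56, when HCC827/GR replicate 1 was left out. The loss of calls can therefore not be read as an effect of pairing. Of the 8 genes 0 were called and 1 (DFNA5, log2 difference 1.56, adjusted p = 0.124) had an unadjusted p under 0.05. Of the partner genes 0 were called higher and 0 lower, with 4 and 8 at an unadjusted p under 0.05. How many reads stand behind any value is unknown.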

Other observations

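Over the 5 libraries, the genes with the profile most like that of DFNA5 were SIRPA, EGFL7 and GTF3C4, by the Euclidean distance between values of log2(FPKM + 1), each centred on the mean of its gene, among 11898 tested symbols with 1 row. SIRPA, which encodes a receptor that binds CD47, had a distance of 0.0743, with 5.86, 6.50 and 7.19 FPKM in HCC827/GR and 1.61 and 1.71 FPKM in HCC827. EGFL7, which encodes a secreted protein of endothelial cells, had a distance of 0.0749, with 6.78, 7.34 and 7.39 FPKM in HCC827/GR and 1.97 and 1.95 FPKM in HCC827. GTF3C4, which encodes a subunit of the RNA polymerase III factor TFIIIC, had a distance of 0.129, with 22.7, 25.9 and 26.7 FPKM in HCC827/GR and 8.82 and 9.11 FPKM in HCC827. With 2 groups and 5 libraries such likeness mostly restates a difference of similar size, since the log2 differences were 1.50, 1.46 and 1.39 beside 1.50 for DFNA5.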
